A study of Mus musculus with 21 samples.

Results

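The third pharyngeal arch (PA3) was compared with the second (PA2) in mouse embryos that lack HIRE1, a regulatory region far from the Hoxa gene cluster on the same chromosome. The question was which arch differences remain in the mutant and which shrink or grow. The libraries were chosen by their labels, as the 3 PA3 and the 3 PA2 libraries of genotype HIRE1del/del (written HIRE1del), which are 6 of the 21 libraries of the series. PA3 and PA2 of wild-type (WT) embryos, again 3 libraries each, served only to ask whether an arch difference was altered. All 12 libraries were made at E10.5 (embryonic day), and the other 9, from sorted PA2 and pinna cells of reporter embryos, were not used here.

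In both genotypes the arches were micro-dissected and, per the study's methods, sexes were pooled and not considered. The mice carried a mixed genetic background, and the mutant carried a deletion made by genome editing in zygotes and kept through crosses of heterozygous mice. The labels call each group 3 independent biological replicates of cranial neural crest cells, but sorting is described only for reporter embryos and for none of these 12 libraries. The arch difference of a gene is given as log2(PA3/PA2), and its change is the difference in HIRE1del minus the difference in WT, so a positive change means that the ratio of PA3 to PA2 was raised in the mutant.

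The pharyngeal arches are paired swellings of the embryonic head and neck that neural crest cells fill after leaving the hindbrain. Crest cells take their arch identity largely from Hox genes, which code for homeodomain transcription factors. PA1 expresses none, PA2 expresses those of paralogous group 2, and PA3 adds those of group 3. Hoxa2 is the gene that sets PA2 apart from PA1, and Hox proteins bind DNA together with TALE homeodomain cofactors of the Meis and Pbx families. Within each arch, endothelin signalling and Dlx genes pattern the dorsal to ventral axis.

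The promoters of Hoxa2 and of the cofactor gene Meis2 are shown as examples. Both transcripts were lower in PA3 than in PA2 of WT embryos and higher in PA3 than in PA2 of HIRE1del embryos. Fzd4 and Erlin2 had the same reversal, and their promoters are not shown. Each sequence is the 250 bases before the transcription start, taken from RefSeq on GRCm38.p6. The Hoxa2 stretch is chr6:52164832-52165081 and the Meis2 stretch is chr2:116064620-116064869, both on the minus strand. Capitals mark matches on either strand to TGATNNAT, a sequence of the kind bound by Hox and Pbx proteins, or to TGACAG, the core bound by Meis proteins.

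Hoxa2: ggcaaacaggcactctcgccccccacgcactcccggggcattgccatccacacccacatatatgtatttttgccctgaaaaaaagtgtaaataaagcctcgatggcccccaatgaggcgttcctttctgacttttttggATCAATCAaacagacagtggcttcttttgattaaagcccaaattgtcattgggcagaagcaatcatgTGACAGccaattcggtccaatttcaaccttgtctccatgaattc

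Meis2: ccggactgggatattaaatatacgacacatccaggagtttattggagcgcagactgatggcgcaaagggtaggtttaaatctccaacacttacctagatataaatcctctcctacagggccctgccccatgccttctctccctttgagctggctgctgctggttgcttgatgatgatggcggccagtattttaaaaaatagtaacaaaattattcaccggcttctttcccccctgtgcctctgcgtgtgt

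In the Hoxa2 stretch, TGATNNAT was matched on the opposite strand from base 140 and TGACAG on the printed strand from base 207, and the Meis2 stretch held neither. Windows of 250 bases before to 50 after the start were searched for the 7 genes whose arch difference changed. RefSeq windows were found for 6 of these genes, of which 3 (Cntfr, Hoxa2 and Mecom) had TGATNNAT in at least 1 window. Fzd4 had neither TGATNNAT nor TGACAG in its window. Among all 32851 windows of this length, 8.85% held TGATNNAT and 19.2% held TGACAG. Cntfr and Mecom have more than 1 window, so the count by gene cannot be set against the shares by window. A match is only a description of the letters.

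The 6 HIRE1del libraries held 25.8 to 28.8 M counts and the 6 WT libraries 25.8 to 32.2 M, so 3 counts corresponded to 0.0924 to 0.117 CPM, the unit of all levels below (counts scaled to a common library size). Markers of cells other than crest were read in every library, and their summed levels separated the arches. Of the 9 erythroid markers in the table all 9 were higher in PA3 of the mutant, where their summed level was 15000 to 25300 CPM against 1650 to 3420 in PA2. Neuronal markers summed to 82.9 to 202 CPM in PA3 against 17.5 to 25.2 in PA2, and cardiac muscle markers to 39.4 to 123 against 6.74 to 8.94. Epithelial markers summed to 555 to 748 CPM in PA3 against 320 to 347 in PA2. The crest mesenchyme sum went the other way, with 878 to 1130 CPM in PA3 against 1300 to 1490 in PA2. Members of a list did not all move as the sum. By the test given below, 7 of the 11 crest markers were lower in PA3 of the mutant, 2 higher (Prrx2 and Msx1) and 2 not called. Of the 12 epithelial markers 7 were higher, 1 lower (Krt14) and 4 not called. Of all genes tested 18.7% were higher and 14.7% lower. The ratios of PA3 to PA2 were 8.94 in HIRE1del and 8.98 in WT for the erythroid sum, 7.63 and 5.38 for the neuronal sum, 11.9 and 8.35 for the cardiac sum, 2.06 and 2.09 for the epithelial sum and 0.711 and 0.719 for the crest sum. Endothelial markers (ratios 1.2 and 1.26) and macrophage markers (1.16 and 1.19) differed less, and Cldn5 and Aif1, a marker of each, were at 0 in all HIRE1del libraries. Glial markers had ratios of 2.42 and 2.35, muscle progenitor markers 0.748 and 0.655, and neural progenitor markers 1.2 and 1.24. The Y-linked Ddx3y read 0 CPM in PA2 WT replicate 1 and 2.33 in PA3 WT replicate 1, against 35.6 to 80.2 in the other WT libraries and 52 to 72.3 in HIRE1del. Rn45s, the ribosomal RNA precursor, took 1.75 to 2.42% of the counts in every PA3 library and 0.82 to 1.59% in every PA2 library. The part of these cells, of sex and of ribosomal RNA in any arch difference was not tested, and in bulk libraries fewer cells of a type cannot be told apart from less RNA per cell.

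**Figure D1:**
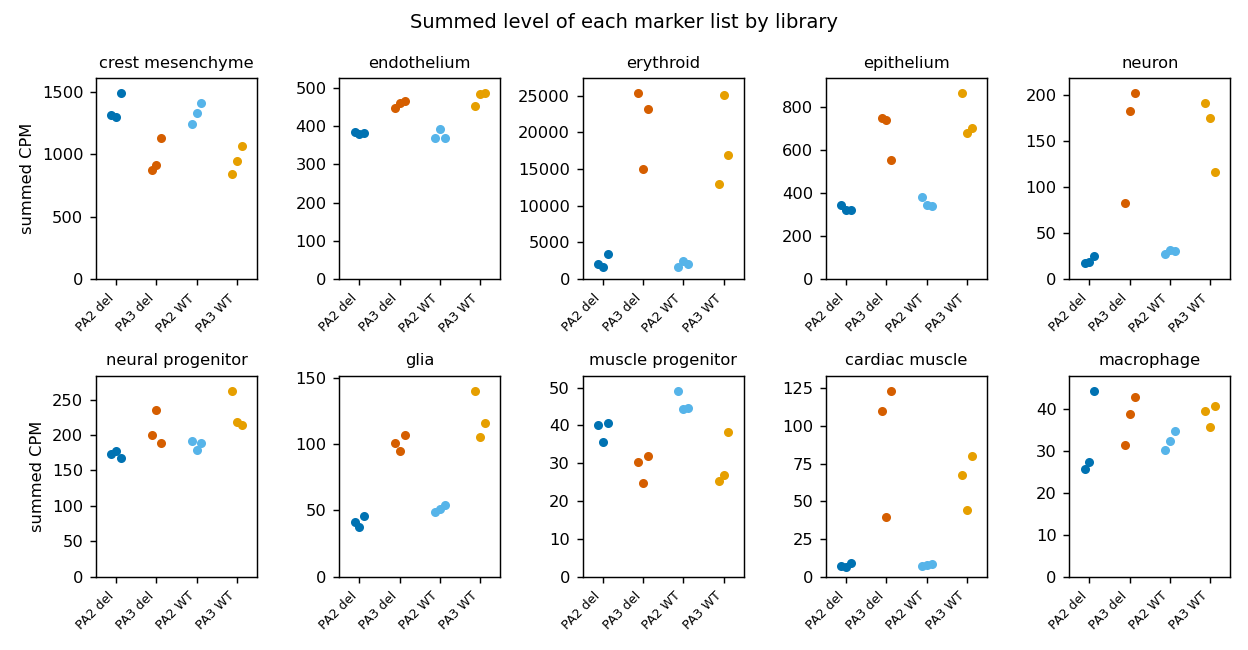
Summed CPM of each marker list (y axis, linear from 0) in the 12 libraries, with PA2 and PA3 of HIRE1del on the left of each panel and of WT on the right. Erythroid, neuronal and cardiac sums in PA3 lie above those in PA2 in both genotypes, and crest mesenchyme sums lie below.

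Of 14383 genes tested, 4806 differed between PA3 and PA2 of the mutant at an adjusted p under 0.05 by edgeR's quasi-likelihood test, 33.4% of all. PA3 was higher for 2686 (18.7%) and lower for 2120 (14.7%). The large differences were mostly rises, with 1044 genes at least doubled in PA3 (a log2 fold change of at least 1) and 134 reduced to the same extent. In WT embryos 5252 genes differed (36.5%), of which 2751 were higher (19.1%) and 2501 lower (17.4%), and 1064 rises and 135 falls had a log2 size of at least 1.

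Most of these differences were shared by the genotypes. Differences called in both with the same sign numbered 3626 (25.2% of the genes tested), which is 75.4% of the calls in HIRE1del and 69% of those in WT. Their median size was 0.55 on the log2 scale in each genotype, and 1687 were larger and 1939 smaller in the mutant. Of the 1176 genes called in the mutant alone, 1075 had the same sign in WT, and of the 1622 called in WT alone, 1526 had the same sign in the mutant. Across all genes tested, the differences of the genotypes had a Pearson r of 0.922 and a Spearman rho of 0.805, a description over genes that are not independent replicates.

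A gene was counted as remaining when it was called in both genotypes with the same sign and the 95% interval of its change lay within 1.5-fold either way. This held for 2308 genes (16% of those tested and 63.7% of those called in both with the same sign), 974 of them higher and 1334 lower in PA3. The limit bounds the change and not its share of the difference. A small difference could therefore shrink or grow by much of its own size and still be counted. The median log2 size of the shared differences was 0.55 in each genotype. The interval is wide for strong or weakly expressed differences. Of the 1085 shared genes with a log2 size of at least 1 in the mutant, 141 were placed within this limit, and of the 415 with a size of at least 2 only 11 were. The other 1318 shared genes had a change that was neither called nor bounded this closely.

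**Figure D2:**
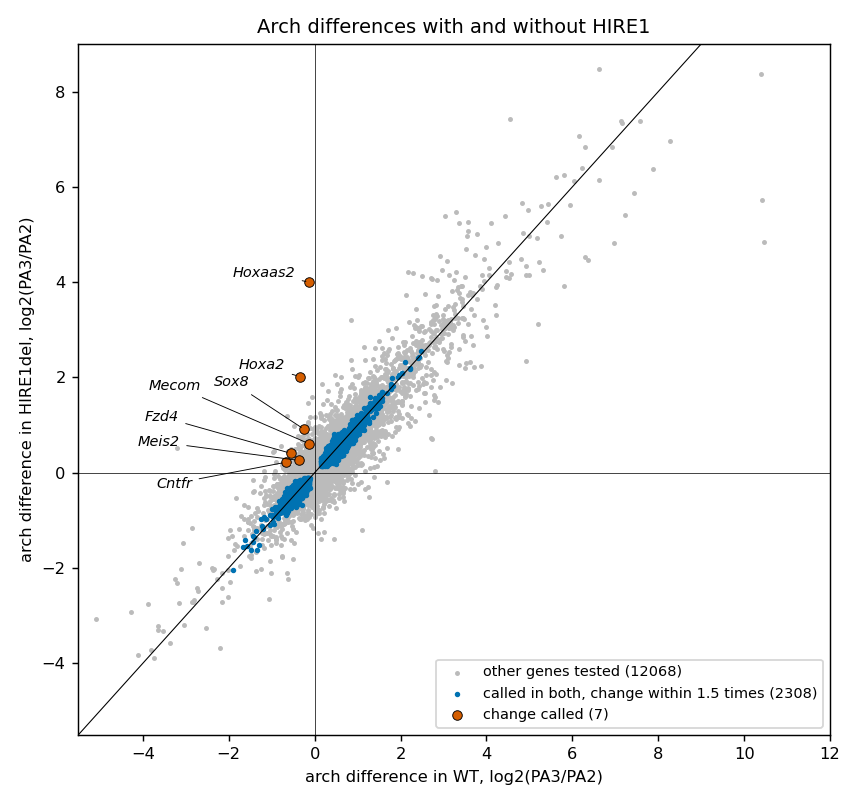
Arch difference, log2(PA3/PA2), in WT (x axis) and in HIRE1del (y axis) for each of the 14383 genes tested, with the line of equal differences. The 2308 genes that remained within 1.5-fold lie along the line, and the 7 genes with a called change lie above it, on the left of the vertical axis.

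The 11 remaining genes with a log2 size of at least 2 were chosen after their values were seen. Tgm2, which codes for a protein crosslinking enzyme, measured 9.73, 9.39 and 9.20 CPM in the 3 PA2 libraries of the mutant and 64.3, 49.7 and 52.7 in the PA3 libraries. Its arch difference was 2.56 (SE 0.159) in the mutant and 2.48 in WT, with a 95% interval of the change from -0.39 to 0.55. Vwf, the clotting factor of endothelial cells and platelets, measured 8.72, 9.20 and 10.4 CPM in PA2 and 43.4, 49.5 and 57.4 in PA3. All PA3 libraries lay above all PA2 libraries for both genes. Cd44, a receptor for hyaluronan, had arch differences of 2.10 in the mutant and 2.03 in WT, and Cpm, a carboxypeptidase, 2.02 and 1.93. Ccn1, a matricellular protein, was the only fall among the 11, with 120, 145 and 115 CPM in PA2 and 30.8, 29.8 and 31.4 in PA3 (arch difference -2.05 against -1.91 in WT). Among the others were Fech, Mt2, Zfpm1, Sptb and Unc13d, with arch differences between 2.06 and 2.44 in the mutant, of which Fech, Zfpm1 and Sptb have known roles in red blood cells and their precursors, whose markers were also higher in PA3 of both genotypes.

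The Hox genes measured were almost all higher in PA3 of the mutant. Of the 45 symbols that begin with Hox, 11 passed the filter on low counts, of which 10 rose and 1 fell in the mutant, against 8 and 2 in WT. The median arch difference over these 11 was 2.69 in HIRE1del and 1.28 in WT, where the median over all genes was 0 in both. A transcript that passes the filter through its PA3 level alone had to differ, so this count is no support for the direction. The kit does not mark the strand, so reads of overlapping antisense transcripts cannot be told apart from those of the Hox genes.

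Hoxa2 measured 5.75, 4.75 and 7.10 CPM in the PA2 libraries of the mutant and 23.7, 25.6 and 22.1 CPM in the PA3 libraries. In WT it measured 73.4, 77.2 and 84.2 CPM in PA2 and 56, 62.9 and 65.1 in PA3. The arches did not overlap in either genotype, with PA3 above PA2 in the mutant and below it in WT. The arch difference was 2.02 (SE 0.121, adjusted p = 2.16e-07, edgeR) in the mutant and -0.35 (SE 0.101, adjusted p = 0.0153) in WT, a change of 2.37 (95% interval 2.03 to 2.71, adjusted p = 1.56e-05). The WT difference was no longer called without PA2 WT replicate 3 (-0.30, adjusted p = 0.0716) or PA3 WT replicate 1 (-0.29, adjusted p = 0.0644, edgeR), whereas the change was called without each library in turn. Hoxa2 lies at chr6:52162417-52164831 on the minus strand.

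Hoxaas2, an antisense transcript that starts between Hoxa2 and Hoxa3 (chr6:52165674-52169564, plus strand), was almost lost from PA2 of the mutant. It measured 0.301, 0.156 and 0.554 CPM in PA2 and 4.60, 6.12 and 5.73 in PA3 of HIRE1del, against 15.8, 18 and 18.8 in PA2 and 15, 17.3 and 16.1 in PA3 of WT. The arches overlapped in WT and were far apart in the mutant. Its arch difference was 4.00 (SE 0.253) in HIRE1del and -0.12 (adjusted p = 0.583, edgeR) in WT, with a change of 4.11 (95% interval 3.46 to 4.77, adjusted p = 2.9e-05). Hoxaas2 shares 503 exon bases with Hoxa3 on the opposite strand.

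Hoxa3, the group 3 gene of the same cluster, measured 0.564, 0 and 0.296 CPM in PA2 of the mutant and 6.29, 7.55 and 5.39 in PA3, against 3.68, 3.02 and 3.54 in PA2 and 29.8, 27.6 and 29.7 in PA3 of WT. PA3 was above PA2 in every library of both genotypes, and both arches of the mutant were below their WT counterparts. The arch difference was 4.45 (SE 0.377) in the mutant, 5.36 without PA2 HIRE1del replicate 1, and 3.09 in WT. Its change of 1.36 (95% interval 0.28 to 2.44) was not called (adjusted p = 0.887, edgeR).

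Genes of the Hoxb and Hoxd clusters, on other chromosomes, kept the direction of their arch difference. Hoxb3 measured 6.77, 6.31 and 6.98 CPM in PA2 and 40.3, 40.4 and 48.9 in PA3 of the mutant, and 11.6, 12.7 and 13.1 against 49.3, 56.7 and 51.8 in WT. PA3 lay above PA2 throughout, and the PA2 libraries of the mutant lay below those of WT. The arch difference was 2.69 (SE 0.098) in HIRE1del and 2.08 in WT. Its change of 0.61 (95% interval 0.33 to 0.90) was not called (adjusted p = 0.42, edgeR). It was called by DESeq2 and with the replicate number as a block (adjusted p = 0.0459, edgeR). This number was taken to mark an embryo pool, which the labels do not state. Hoxb3os, the antisense transcript of Hoxb3, remained within 1.5-fold, at 1.60 in the mutant and 1.28 in WT. Hoxb2, the paralogue of Hoxa2, differed by 1.05 in the mutant and 0.66 in WT.

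Hoxd3 measured 0.413, 0.390 and 0.333 CPM in PA2 and 5.46, 5.63 and 14.4 in PA3 of the mutant, so that 1 PA3 library lay well above the other 2. Its arch difference was 4.48 in HIRE1del, 3.86 without PA3 HIRE1del replicate 3, and 4.81 in WT. The same library was high for Hoxb4, where it read 4.03 CPM against 1.23 and 1.22 in the others and the arch difference of 3.59 became 2.77 without it, and for Hoxd4 (4.38 CPM against 1.68 and 1.85, arch difference 4.49). Hoxd1 was the only Hox gene lower in PA3 of the mutant, with 2.52, 1.99 and 2.25 CPM in PA2 and 0.935, 0.979 and 1.49 in PA3. Its difference of -0.98 (adjusted p = 0.0232, edgeR) was no longer called without PA2 HIRE1del replicate 1 (-0.90), PA3 HIRE1del replicate 1 (-0.86) or PA3 HIRE1del replicate 2 (-0.88), with adjusted p from 0.0715 to 0.0841.

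All 4 transcripts tested from the list of noncoding Hox transcripts, of 9 listed, rose in PA3 of the mutant and 2 rose in WT. Of all genes tested, 18.7% rose in the mutant and 19.1% in WT. With a minimum of 1 CPM in every library 1 of the list rose in the mutant. Besides Hoxaas2 and Hoxb3os these were Hotairm1, a transcript of the Hoxa cluster, which measured 0.864, 0.312 and 0.591 CPM in PA2 and 1.95, 2.62 and 2.57 in PA3 of the mutant (arch difference 2.00 against 0.62 in WT, adjusted p = 0.0765 in WT, edgeR), and 5730596B20Rik. The last is annotated as protein coding and passed the filter through its PA3 level alone, so it had to differ. For it, 3 counts were seen in all of PA2 of the mutant and the ratio of PA3 to PA2 was 66.1 with a 95% counting interval from 22.3 to 323. It shares 292 exon bases with Hoxa3.

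**Figure D3:**
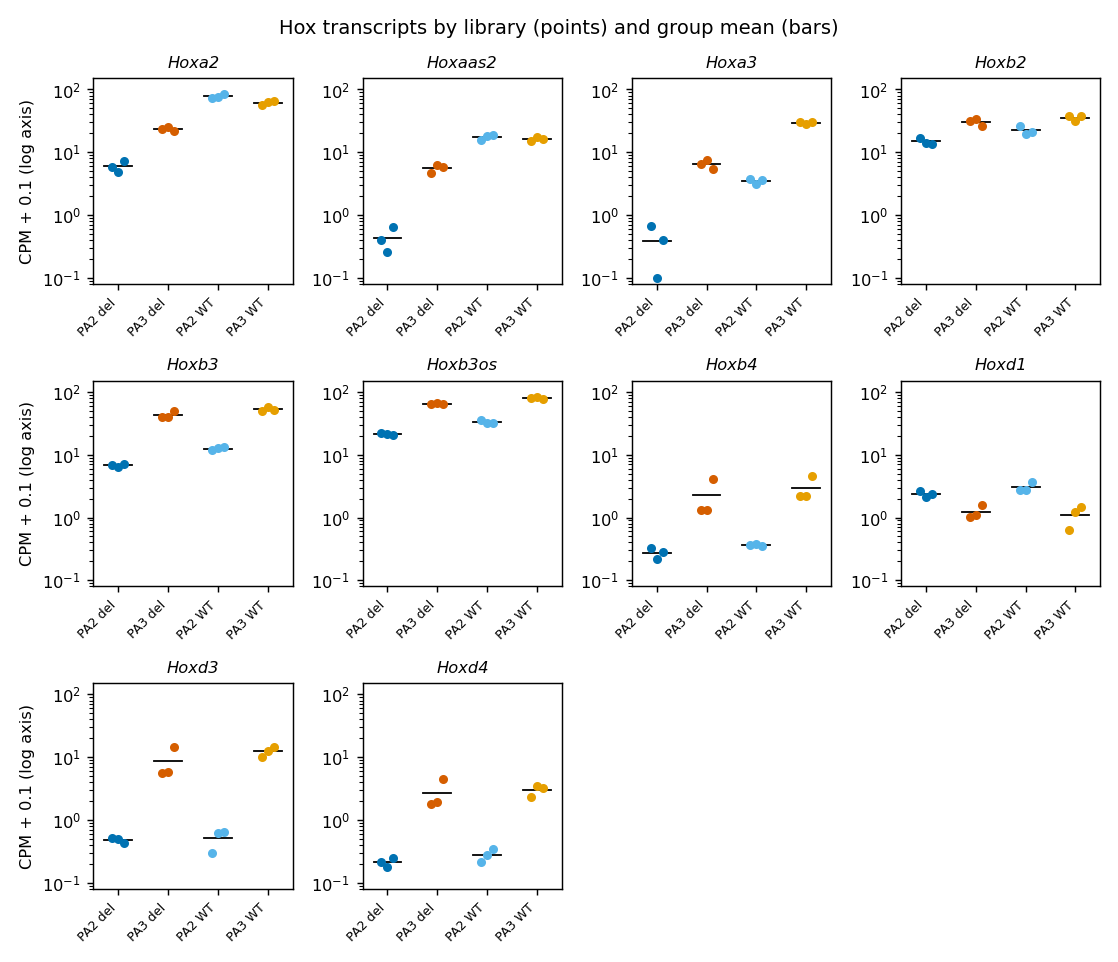
CPM with 0.1 added (log axis) of 10 of the 11 Hox transcripts tested, with 1 point per library and a bar at the group mean. In HIRE1del the PA3 points lie above the PA2 points for every transcript shown but Hoxd1, while in WT the arches overlap for Hoxaas2 and are reversed for Hoxa2.

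The arch difference itself changed for 7 genes by edgeR (0.0487% of the genes tested), and for all 7 the change was positive and the signs in the 2 genotypes differed. Besides Hoxa2 and Hoxaas2 these were Meis2, Fzd4, Cntfr, Sox8 and Mecom. None of the 3626 differences called in both genotypes with the same sign had a called change, while 794 genes (5.52%) had an unadjusted p under 0.05 for the change. Changes below 0.62 in size were not called in this fit, with a median SE of the change of 0.133.

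Meis2 measured 274, 287 and 290 CPM in PA2 and 334, 356 and 327 in PA3 of the mutant, and 461, 435 and 454 in PA2 and 360, 347 and 342 in PA3 of WT. The arches were apart in both genotypes, in opposite directions, and the PA2 libraries moved further between genotypes than the PA3 libraries. The arch difference was 0.26 (SE 0.0467, adjusted p = 0.00107, edgeR) in the mutant and -0.37 (SE 0.0466) in WT, with a change of 0.62 (95% interval 0.48 to 0.76, adjusted p = 0.00151) that was called without each library in turn.

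Fzd4, a Wnt receptor, measured 88.3, 91.7 and 91.6 CPM in PA2 and 124, 134 and 104 in PA3 of the mutant. In WT it measured 173, 158 and 168 CPM in PA2 and 131, 97.9 and 111 in PA3. Here too the arches were apart in each genotype, in opposite directions. PA3 differed from PA2 by 0.41 in HIRE1del and -0.56 in WT, a change of 0.97 (SE 0.14, adjusted p = 0.0225, edgeR). It was 0.88 to 1.01 and no longer called without any one of 8 libraries, namely replicates 1 and 2 of either arch of HIRE1del, the 3 PA2 WT libraries and PA3 WT replicate 3 (adjusted p up to 0.0968).

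Cntfr, the binding subunit of the receptor for ciliary neurotrophic factor, measured 14.4, 12 and 14.4 CPM in PA2 and 16.5, 15.6 and 15.5 in PA3 of the mutant, and 31.1, 31.9 and 30.3 against 21.2, 16.7 and 20.6 in WT. The difference of -0.67 in WT was 0.22 (adjusted p = 0.111, edgeR) in the mutant, a change of 0.89 (SE 0.138, adjusted p = 0.0409). The call was lost without any library but PA2 HIRE1del replicate 3 or PA3 WT replicate 1, with changes from 0.79 to 0.94 and adjusted p up to 0.19, and also with scaling by library totals alone or a minimum of 1 CPM in every library.

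Sox8, a SoxE transcription factor of crest and glia, measured 6.39, 5.18 and 6.10 CPM in PA2 and 11.2, 11.2 and 10.8 in PA3 of the mutant, while the WT libraries of both arches read 10.6 to 14.6. The arches were apart in the mutant and overlapped in WT. PA3 differed from PA2 by 0.91 in HIRE1del and -0.24 in WT, a change of 1.15 (SE 0.157, adjusted p = 0.0205, edgeR). The change was 1.06 to 1.13 and no longer called without PA2 HIRE1del replicate 2, PA3 HIRE1del replicates 1 or 2, PA2 WT replicates 1 or 2, or PA3 WT replicates 2 or 3 (adjusted p up to 0.0805). Sox8 shares 329 exon bases with 2810468N07Rik.

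Mecom, a zinc finger transcription factor, measured 139, 139 and 134 CPM in PA2 and 199, 210 and 219 in PA3 of the mutant, and 255, 217 and 240 against 190, 231 and 227 in WT. PA2 of the mutant was the lowest of the 4 groups, and the other 3 overlapped one another in part. Its arch difference was 0.61 in HIRE1del and -0.13 in WT, a change of 0.74 (SE 0.107, adjusted p = 0.0225, edgeR), which was 0.69 to 0.75 and not called without PA2 HIRE1del replicates 1 or 2, PA3 HIRE1del replicates 2 or 3, or PA2 WT replicates 1 or 3 (adjusted p up to 0.0968).

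Libraries with the same replicate number moved together within a genotype (r from 0.226 to 0.394), so the fit was repeated with that number as a block. The block is called the embryo pool here, but the labels state no shared pool and the pairing is inferred from these data. The changed genes then numbered 26 (0.181% of those tested), the 7 above among them, with 20 positive and 6 negative changes. The signs of the 2 genotypes differed for 14 of the 26, the difference was smaller in the mutant for 4 and larger for 8. For 21 of the 26 the PA2 libraries of HIRE1del and WT did not overlap, where 13.2% of all genes had PA2 libraries apart. For 8 the PA3 libraries did not overlap, where 14.3% of all genes had PA3 libraries apart. The 26 were picked by their change in these same libraries, and a change takes a genotype shift in at least 1 arch. These counts therefore describe the 26 and are no test against all genes.

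Several genes of the 19 added had an arch difference that was larger in the mutant. Pax9, a paired box factor of the pharyngeal pouches and crest, measured 8.49, 5.69 and 9.54 CPM in PA2 and 38.5, 42.7 and 40.7 in PA3 of the mutant, and 21.3, 18.7 and 17.6 against 50.8, 39.8 and 40.1 in WT. The PA3 libraries of the genotypes overlapped and the PA2 libraries did not. Pax9 differed by 2.36 in HIRE1del and 1.18 in WT, with a change of 1.19 in the blocked fit (adjusted p = 0.0156, edgeR) and an adjusted p of 0.143 without the block. Pax9 shares 189 exon bases with Slc25a21.

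Vcam1, a cell adhesion molecule, measured 23.2, 19.9 and 34.6 CPM in PA2 and 51.6, 74.5 and 84.4 in PA3 of the mutant, and 61.6 to 83.3 CPM in the 6 WT libraries. Its arch difference was 1.44 in HIRE1del and 0.20 in WT (change 1.24, adjusted p = 0.0156, edgeR with the block). Fgf15, a growth factor of the pharyngeal region and brain, rose by 2.36 in the mutant against 0.85 in WT (change 1.52, adjusted p = 0.0156, edgeR with the block). Postn, a matrix protein of fibroblasts and cushions, rose by 1.13 in the mutant against 0.41 in WT, and Rarres1 by 1.16 against -0.11, the mutant difference of Rarres1 being uncalled without PA2 HIRE1del replicates 2 (1.20) or 3 (0.90) or PA3 HIRE1del replicates 1 (0.87) or 2 (1.05).

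The 6 negative changes were those of Smoc2, Alx4, Zbtb16, Foxp4, Col25a1 and Flrt2. Smoc2, a secreted modulator of matrix and growth factor signals, measured 21.6, 21.4 and 27.3 CPM in PA2 and 3.33, 4.30 and 7.37 in PA3 of the mutant, and 11.6, 14.1 and 12.2 against 6.96, 7.93 and 9.62 in WT. PA2 of the mutant was the highest group and PA3 of the mutant the lowest in mean. Smoc2 differed by -2.22 in HIRE1del and -0.62 in WT, a change of -1.64 with the block (adjusted p = 0.0108, edgeR). The WT difference of Smoc2 was -0.52 to -0.68 and no longer called without any one WT library but PA3 WT replicate 3 (adjusted p up to 0.125, edgeR).

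Zbtb16, a zinc finger repressor, fell by 1.24 on the log2 scale in the mutant, with -0.44 in WT. Foxp4, a forkhead factor, fell by 0.46 in the mutant, with 0.05 in WT, and Flrt2, an adhesion and guidance protein, fell by 0.67, with -0.25 in WT. Blocked changes of these 3 were -0.79, -0.51 and -0.41. Col25a1, a membrane collagen, had -0.10 in the mutant and 0.40 in WT, the latter uncalled without PA2 WT replicate 3 (0.37) or PA3 WT replicate 2 (0.33).

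Arch differences of the same sign that were smaller in the mutant were fewer. Of the genes below, Prr16, Epha3 and Serinc5 had values of opposite sign in the 2 genotypes instead. Dlx6os1, the antisense transcript of the Dlx6 region, fell by 1.20 on the log2 scale in PA3 of the mutant and by 1.96 in WT (blocked change 0.78, adjusted p = 0.0156, edgeR). Lix1 was called in WT (-0.69) and not in the mutant (-0.11), with a blocked change of 0.58. Tmem132c had -0.62 in WT and -0.17 in the mutant, the latter called with the block (adjusted p = 0.0185, edgeR) and not without it, and a blocked change of 0.46. Tcim had -0.70 in WT and -0.13 in the mutant (blocked change 0.56). Prr16 and Epha3, an ephrin receptor, were lower in PA3 of WT, by -0.96 and -0.49, with values of 0.43 and 0.22 in the mutant that were called with the block (adjusted p = 0.0349 and 0.0303, edgeR) and not without it (blocked changes 1.40 and 0.73). Serinc5 had -0.42 in WT and 0.04 in the mutant (blocked change 0.45). Gpr50, an orphan receptor, was among the 10 genes called in WT with the smallest p of the change, but its WT difference of -1.17 and its mutant value of -0.15 gave a change of 1.02 that was not called in either fit (adjusted p = 0.405, and 0.0726 with the block, edgeR).

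**Figure D4:**
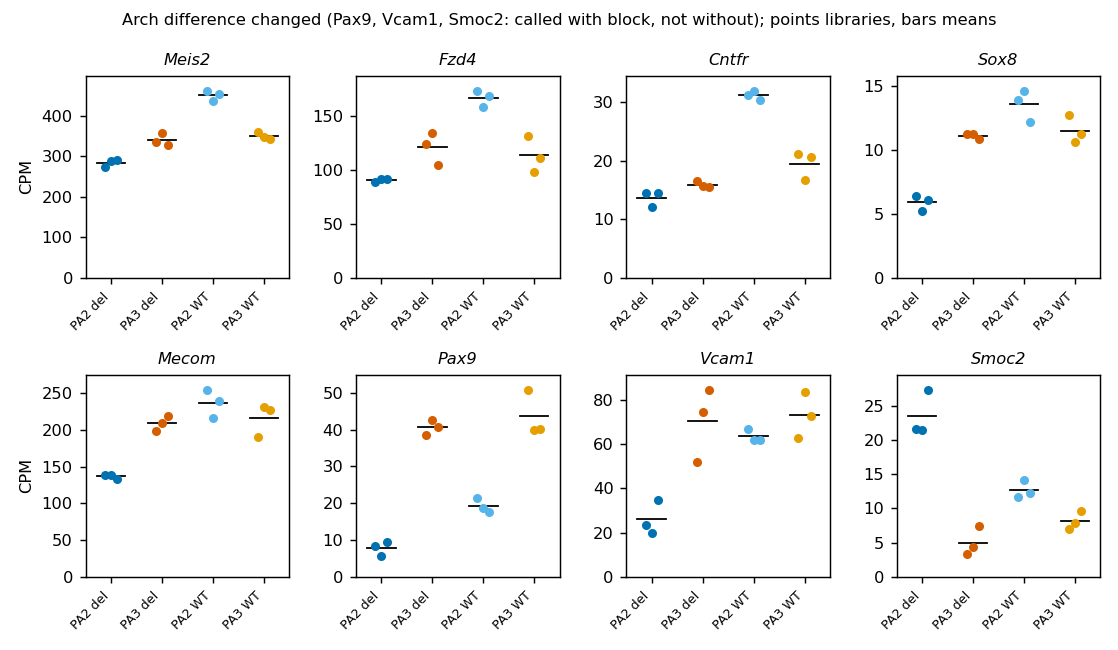
CPM (y axes, linear from 0) of 8 genes in the 4 groups, with 1 point per library and a bar at the group mean. The 5 genes from Meis2 to Mecom had a called change, Pax9, Vcam1 and Smoc2 had one with the embryo pool block and not without it, and in all 8 panels the PA2 HIRE1del libraries lie outside the range of the other 9.

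Genes listed as repressed by Hoxa2 in PA2 were lower in PA3 of the mutant. Of the 6, 5 fell (Gbx2, Pitx1, Alx4, Barx1 and Rspo2) and Lhx6 was not called, whereas in WT 2 fell, 1 rose and 3 were not called. The median arch difference was -0.81 in the mutant and -0.36 in WT. The lists of repressed and activated genes were chosen on these samples, through the rise or fall of their members in PA2 of HIRE1del, so they are no independent evidence of a direction.

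Gbx2, a homeobox factor, measured 15.9, 17.3 and 25.9 CPM in PA2 and 2.58, 4.06 and 2.71 in PA3 of the mutant, and 3.45, 6.21 and 6.87 against 4.02, 1.93 and 2.09 in WT. The arches overlapped in WT and were far apart in the mutant. Gbx2 differed by -2.66 (SE 0.312) in HIRE1del and -1.06 in WT, and the change of -1.60 (95% interval -2.56 to -0.64) was not called (adjusted p = 0.752, edgeR). Pitx1, a homeobox factor of the first arch and hindlimb, measured 12.6, 16.7 and 21.4 CPM in PA2 and 4.75, 3.57 and 6.22 in PA3 of the mutant, with 0.822 to 1.51 CPM in the 6 WT libraries. Its level in PA3 of the mutant was thus above that of every WT library, and its arch difference was -1.80 (SE 0.214) with -0.50 in WT. Alx4, a homeobox factor of the frontonasal region, measured 29.7, 29.4 and 47.5 CPM in PA2 and 19.7, 17.8 and 26.5 in PA3 of the mutant, and 9.06 to 12.6 CPM in WT. Its arch difference was -0.74 in the mutant and 0.20 in WT, and the blocked change of -0.93 was called (adjusted p = 0.022, edgeR). Barx1, a homeobox factor of arch mesenchyme, fell by 0.88 on the log2 scale in the mutant and by 0.57 in WT, and Rspo2, a Wnt agonist, fell by 0.64 in the mutant, with -0.22 in WT. Lhx6, a LIM homeobox factor, read 0.33 in the mutant (adjusted p = 0.373, edgeR) and rose by 1.31 in WT.

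Of the 6 genes listed as activated by Hoxa2, 4 rose in PA3 of the mutant (Meis2, Fzd4, Meox1 and Zfp503) and none fell, whereas in WT 4 fell and 1 rose. The median arch difference was 0.33 in the mutant and -0.36 in WT. Meox1, a homeobox factor, measured 3.98, 2.61 and 4.43 CPM in PA2 and 16, 14.3 and 15.2 in PA3 of the mutant, and 10.7, 11.2 and 8.87 against 28.2, 23.2 and 26.8 in WT. It was higher in PA3 in both genotypes, by 2.04 in HIRE1del and 1.35 in WT, with a change of 0.69 (95% interval 0.23 to 1.16) that was not called. Zfp703, a zinc finger corepressor, fell by 0.78 in WT and had -0.12 in the mutant (adjusted p = 0.41, edgeR), and its relative Zfp503 rose by 0.49 in the mutant, with 0.20 in WT. Meis1 fell by 0.35 in WT and had -0.11 in the mutant. Among the 8 TALE cofactor genes tested, 1 rose and 2 fell in the mutant, which is near the 33.4% called over all genes tested. The falls were Pbx3 (-0.26, with -0.29 in WT) and Pknox2 (-0.65, with -0.11 in WT), and Pbx3 remained within 1.5-fold.

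The dorsal to ventral patterning genes mostly kept the direction of their arch difference. Of 22 genes, 9 rose and 12 fell in PA3 of the mutant, where 18.7% and 14.7% of all genes tested did. Of the list, 20 were called in both genotypes with the same sign (25.2% of all genes tested), 8 of them within 1.5-fold. For the rest of the 20 the change was not bounded this closely, so the lack of a call does not show an equal size. The median size of the difference was 0.97 in HIRE1del and 0.98 in WT, against 0.18 and 0.19 over all genes tested, and no change was called in this list with or without the block. Without PA2 HIRE1del replicate 3 the rises numbered 6.

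The Dlx genes, homeobox factors nested along this axis, were all lower in PA3. The crest mesenchyme sum, which holds Dlx1 and Dlx2, was lower too, with a ratio of PA3 to PA2 of 0.711 in HIRE1del and 0.719 in WT. Dlx5 measured 38.1, 41.3 and 44.9 CPM in PA2 and 14.0, 12.8 and 13.6 in PA3 of the mutant, and its partner Dlx6 measured 44.9, 46.6 and 49.6 against 20.2, 18.4 and 17.2. No PA3 library reached a PA2 library for either gene. Dlx5 fell by 1.62 on the log2 scale in the mutant and 1.48 in WT, Dlx6 by 1.34 and 1.42, and Dlx1 by 1.04 and 0.97, and these 3 remained within 1.5-fold. Dlx2 fell by 1.10 in the mutant and 0.76 in WT, Dlx3 by 2.01 and 2.35, and Dlx4 by 3.21 and 3.64.

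Pou3f3, Emx2 and Gsc were also lower. Pou3f3, a POU factor of the dorsal arch, measured 101 to 153 CPM in PA2 and 11.9 to 24.4 in PA3 of the mutant, and 160, 109 and 124 against 3.94, 3.25 and 18.8 in WT. Emx2, a homeobox factor, measured 37.3, 33.2 and 38.6 CPM in PA2 and 2.96, 3.36 and 4.73 in PA3 of the mutant, and 41.4, 39.2 and 42.0 against 1.95, 1.64 and 6.05 in WT. PA3 WT replicate 3 was the highest WT PA3 library for both genes, as it was for Dlx3 (25.8 CPM against 14.0 and 13.7) and for 3110099E03Rik, a transcript of unknown function (8.17 against 0.229 and 0.214). Whether this library holds PA2 tissue was not tested. The arch differences were -2.75 in the mutant and -3.89 in WT for Pou3f3, and -3.30 and -3.64 for Emx2. Without PA3 WT replicate 3 the WT difference was -5.18 for Pou3f3, -4.50 for Emx2, -2.72 for Dlx3 and -8.82 for 3110099E03Rik, which had -5.08 with it. Gsc, a homeobox factor, measured 17.3, 15.8 and 39.6 CPM in PA2 and 2.96, 1.71 and 3.30 in PA3 of the mutant (arch difference -3.19, with -3.05 in WT).

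Hand1, Edn1, Jag1 and Mef2c were higher in PA3. Hand1, a bHLH factor of the ventral arch, measured 1.62, 2.26 and 0.924 CPM in PA2 and 10.6, 7.66 and 7.30 in PA3 of the mutant, and rose by 2.41 there and by 1.95 in WT. Hand2, its close relative, was not called in either genotype, at 0.26 and -0.09. Edn1, the endothelin ligand, measured 2.29, 2.49 and 1.29 CPM in PA2 and 9.39, 8.22 and 3.68 in PA3 and rose by 1.81 in the mutant and 1.73 in WT. Its receptor Ednra fell by 0.47 in the mutant and 0.40 in WT, the mutant call being lost without PA2 HIRE1del replicate 3 (-0.41) or PA3 HIRE1del replicates 1 (-0.37) or 2 (-0.42). Jag1, a Notch ligand, rose by 0.90 and 0.78, and Mef2c, a MADS box factor, by 0.77 and 0.90. Nkx3-2, which marks the joint region, had 0.41 in the mutant and 1.04 in WT, the mutant call being lost without any one of 5 HIRE1del libraries (all but PA3 HIRE1del replicate 2, values 0.34 to 0.45) or PA3 WT replicate 3 (0.41). The mutant call of Nkx3-2 was also lost with DESeq2 (0.41), with no filter on low counts (0.40) and with the 6 HIRE1del libraries alone (0.41).

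**Figure D5:**
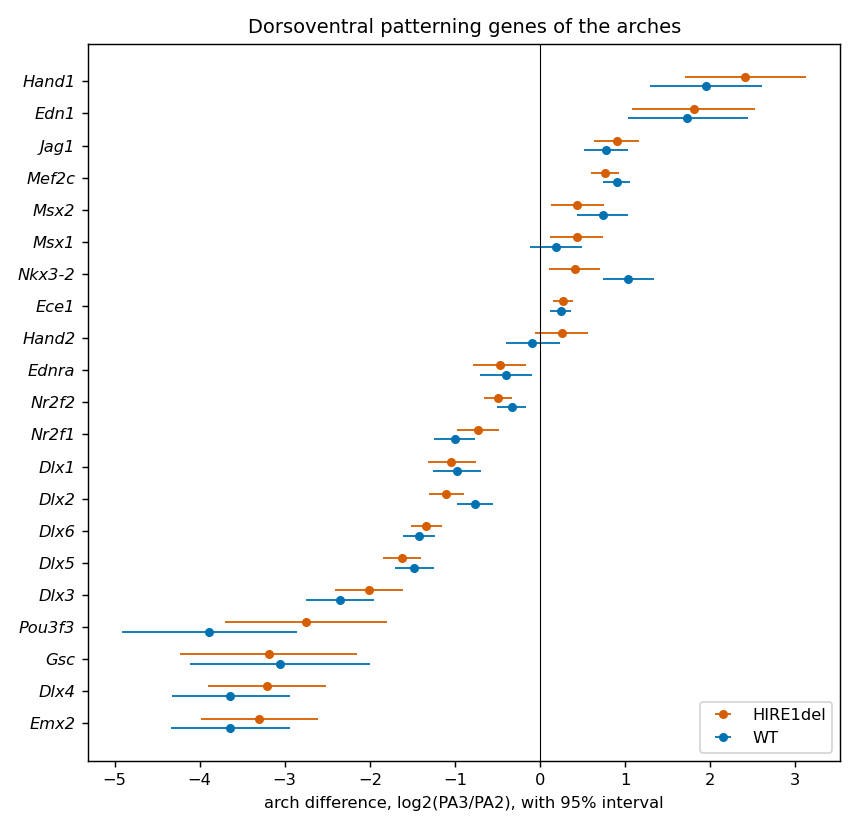
Arch difference, log2(PA3/PA2) (x axis), of 21 of the 22 dorsal to ventral patterning genes in HIRE1del and in WT, with 95% intervals as bars. The points of the genotypes lie on the same side of 0 for every gene shown but Hand2, from Emx2 at -3.30 to Hand1 at 2.41 in HIRE1del.

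The largest rises in PA3 of the mutant included neuronal genes, whose marker sum was also higher in PA3, by 7.63-fold in HIRE1del and 5.38-fold in WT. The 12 were chosen by size among genes whose arches did not overlap in the mutant. A gene near 0 in PA2 that passed the filter through its PA3 level had to differ, so these rises are no support for a direction. Neurog2, Neurod1 and Neurod4, proneural bHLH factors, had arch differences of 6.84, 6.25 and 6.15, with 6.30, 5.80 and 6.61 in WT. Tbx20, a cardiac T-box factor, had 5.39 and 4.44, Rgs4, a regulator of G protein signalling, 4.98 and 5.00, and Fam43b 5.63 and 5.95. Neurod1 shares 201 exon bases with Cerkl. For 3 more of the 12 largest rises PA2 held 5 counts or fewer, and the ratio of PA3 to PA2 was 376 for Afp, alpha-fetoprotein (95% counting interval 128 to 1830), 158 for Tlx2, a homeobox factor (43.4 to 1310), and 91.8 for St18, a zinc finger factor (39.1 to 284). The fitted arch difference of Tlx2 was 7.06, and 9.80 without PA2 HIRE1del replicate 3. That of Afp was 8.38, 9.26 without PA2 HIRE1del replicate 2 and 7.76 without PA3 HIRE1del replicate 3. Afp ranged from 8.64 to 23.9 CPM in PA3 of the mutant and from 13.6 to 250 in PA3 of WT, and its mutant call was lost with limma-voom (adjusted p = 0.246).

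Acta2, smooth muscle actin, measured 1.39, 1.44 and 3.88 CPM in PA2 and 94.2, 56.3 and 72.4 in PA3 of the mutant, and 2.32, 3.09 and 2.40 against 69.1, 72.2 and 85.4 in WT. Every PA3 library was above every PA2 library, which in the mutant the rule for the largest rises required. The arch difference of Acta2 was 5.04 (SE 0.293) in HIRE1del, 5.71 without PA2 HIRE1del replicate 3, and 4.86 in WT. Tagln, a partner of smooth muscle actin, measured 3.08, 4.17 and 3.88 CPM in PA2 and 55.3, 50.6 and 34.3 in PA3 of the mutant (3.65, with 3.78 in WT). Among the 18 outflow tract and smooth muscle genes tested, 12 rose and 1 fell in the mutant, against 12 and 0 in WT. Of all genes tested 18.7% rose and 14.7% fell in the mutant. With the embryo pool block 3 of the list fell in the mutant, and with a minimum of 1 CPM in every library 5 rose. A gene that passes the filter through its PA3 level alone had to differ. The median arch difference was 1.48 in HIRE1del and 1.36 in WT. Gata3, a zinc finger factor, rose by 1.25 and 1.44 and remained within 1.5-fold.

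The largest falls were Dlx4os (-3.82), Fosb (-3.71), Fos (-3.57), Emx2os (-3.32), Emx2, Dlx4, Gsc, 3110099E03Rik (-3.07), Pantr1 (-2.92), Pou3f3, D030045P18Rik (-2.73) and Egr1 (-2.72). By function they were patterning homeobox genes with transcripts beside them (Emx2os, Dlx4os, and Pantr1 beside Pou3f3), the immediate early genes Fos, Fosb and Egr1, and 2 Riken transcripts. Fos, a transcription factor induced within minutes of many stimuli, measured 32.1, 43.0 and 41.2 CPM in PA2 and 2.13, 3.29 and 4.34 in PA3 of the mutant and fell by 3.36 on the log2 scale in WT. Emx2 and Emx2os share 264 exon bases and Dlx4 and Dlx4os share 79, so their values are not separate.

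Of the 18 genes of the pharyngeal pouches and the Pax-Six-Eya network tested, 12 rose and 1 fell in the mutant, against 15 and 1 in WT. In the mutant 18.7% of all genes tested rose and 14.7% fell, and with a minimum of 1 CPM in every library 8 of the list rose. Of the list, 13 were called in both genotypes with the same sign. The epithelial marker sum was also higher in PA3, by 2.06-fold in HIRE1del and 2.09-fold in WT, and its part in these differences was not tested. Pax1, a paired box factor of the pouches, measured 6.05, 4.79 and 3.84 CPM in PA2 and 25.6, 23.2 and 14.9 in PA3 of the mutant, a difference of 2.12 that was 2.14 in WT. Gcm2, the master factor of the parathyroid, measured 0.451, 0.156 and 0.0739 CPM in PA2 and 7.52, 4.83 and 8.69 in PA3. The libraries of the arches did not overlap for either gene. The arch difference of Gcm2 was 4.92 in the mutant, 5.89 without PA2 HIRE1del replicate 1, and 5.18 in WT. Nkx2-6, a homeobox factor of the pharynx, rose by 3.00 and 2.85, and Isl1, a LIM homeobox factor, by 1.02 and 0.82. Tbx1, the T-box factor of the pharyngeal endoderm and mesoderm, rose by 1.95 in WT and had 0.50 in the mutant (adjusted p = 0.426, edgeR), with an interval of the change from -2.82 to -0.08 and no call. Tbx2 measured 51.7, 45 and 51.4 CPM in PA2 and 183, 154 and 161 in PA3 of the mutant and rose by 1.75, with 1.79 in WT, and Tbx3 rose by 1.36, with 1.45 in WT, both within 1.5-fold. These 2 are transcriptional repressors, and over the 9 T-box genes tested 4 rose and 1 fell, where 18.7% and 14.7% of all genes did. The fall was that of Tbx22, which was no longer called without PA2 HIRE1del replicates 1 (-1.12) or 3 (-0.74) or PA3 HIRE1del replicates 1 (-1.06) or 2 (-0.96).

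Among 36 signalling ligands and targets tested, 16 rose and 6 fell in the mutant, against 17 and 6 in WT. In the mutant 18.7% of all genes tested rose and 14.7% fell. Of the 21 shared calls of the list, 13 remained within 1.5-fold. The median size over the 36 genes was 0.54 in each genotype. Axin2, a feedback inhibitor and target of Wnt signalling, measured 139, 141 and 154 CPM in PA2 and 61.2, 58.1 and 72.1 in PA3 of the mutant, and fell by 1.18 on the log2 scale, with a fall of 1.21 in WT. Bmp4, a BMP ligand, measured 16.9, 14.4 and 20.7 CPM in PA2 and 42.2, 34.2 and 39.8 in PA3 (1.16, with 1.35 in WT). Both genes had the arches apart and remained within 1.5-fold. Bmp2 rose by 2.28 and 2.08, Hey2, a Notch target, by 1.90 and 2.08, and Etv5, an FGF target, by 0.92 and 0.85.

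Of 17 genes of the retinoic acid pathway tested, 3 rose (the degrading enzymes Cyp26b1 and Cyp26c1 and the synthesis enzyme Rdh10) and 5 fell in the mutant, against 5 and 4 in WT. Of all genes tested 18.7% rose and 14.7% fell in the mutant, and the rises of this list are near that share. Cyp26c1 measured 2.74, 1.13 and 1.66 CPM in PA2 and 12.4, 20.6 and 15 in PA3 of the mutant, a difference of 3.11 with 2.32 in WT. Rarg, a retinoic acid receptor, measured 123, 129 and 139 CPM in PA2 and 60.2, 54.1 and 71.3 in PA3 and fell by 1.07, with a fall of 0.94 in WT. Crabp1, a retinoic acid binding protein, fell by 0.65 and 0.55, and Rarg, Crabp1, Crabp2 and Rdh10 remained within 1.5-fold.

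Of 12 tested genes that lie near HIRE1 and the Hoxa cluster on chromosome 6, 2 rose and 3 fell in the mutant, and the 3 called in both genotypes all remained within 1.5-fold, namely Skap2, an adaptor protein (1.01 and 0.86), Cbx3, a heterochromatin protein (-0.22 and -0.28), and Hnrnpa2b1, an RNA binding protein (-0.31 and -0.38). Osbpl3, the second rise, was no longer called without any HIRE1del library but PA3 replicate 3 (0.24 to 0.37) or without PA2 WT replicates 2 or 3 (0.32 each). Within 10 Mb of Hoxa2, 104 genes were tested and 49 were called in the mutant, where 33.4% of all genes tested were called. Of these 104, 2 had a changed arch difference with the block, Hoxa2 and Hoxaas2.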

How the data were processed

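Gene counts of 12 libraries (PA2 and PA3 of WT and HIRE1del embryos, 3 per group) were analysed. The authors aligned paired reads of 50 bases to GRCm38 (mm10) with QuasR, allowing for splicing, counted alignments on the exons of each UCSC known gene with the option "opposite" for orientation, and deposited the counts without normalization. Per the submitters' processing notes, bcl2fastq 2.17 and 2.20 were used. The library kit is stated to be unstranded. Of the 24594 genes in the table, 18 had no symbol, and 0 columns of values were left unused. The table of the stage series was not used here.

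Analysis was done in R 4.3.3 with edgeR 4.0.16. The filter retained 14383 genes that reached 1 CPM in 2 or more libraries. Library sizes were adjusted by TMM (factors from 0.983 to 1.01), and all 12 libraries entered 1 fit with a mean for each group (common dispersion 0.00979). Each contrast was given a two-sided quasi-likelihood F test in edgeR, adjusted by Benjamini and Hochberg over the 14383 genes, and calls required an adjusted p under 0.05. Intervals are 95% intervals from the fit. Every adjusted p is from this test unless limma-voom is named. Ratios for genes with 5 or fewer counts in PA2 carry 95% counting intervals, which cover counting error only. Steps were tested on simulated data.

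The named genes were all members of the gene lists, the 12 largest rises and falls in the mutant (called, average log2 CPM of at least 1, libraries of the arches apart), all genes with a called change with or without the block, and the 10 WT calls with the smallest p of the change. Erlin2, Bmp5, Srp54b, Ddx3y and the 11 large differences that remained were chosen after their values were seen. A few members of the lists are left out of the text. The members and lists were chosen with earlier results of these data known. Lists share genes, such as Mef2c, Dlx1 and Msx1. Positions are those of the reference annotation, for 14140 of the genes tested.

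Deviations from the group mean of PA2 and PA3 libraries with the same number were correlated within a genotype, at r = 0.239, 0.307 and 0.354 in HIRE1del and 0.394, 0.226 and 0.266 in WT, so the numbers were taken to pair the arches by embryo pool, and the fit with this block is an alternative. The labels state no shared pool. No HIRE1del library was a copy of another (chi-square between replicates of 7 to 16.8 for each degree of freedom). Other alternatives were DESeq2 1.42.0 and limma-voom (limma 3.58.1), other scalings and filters, the 6 libraries alone, and leaving out each library.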

Additional observations from a re-analysis of the deposited data

Results flagged for a closer look

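Each gene here had an arch difference in HIRE1del that differed from that in WT by the test of the difference itself. The changes, on the log2 scale, were 4.11 for Hoxaas2, 2.37 for Hoxa2, 1.15 for Sox8, 0.97 for Fzd4, 0.89 for Cntfr, 0.74 for Mecom and 0.62 for Meis2.

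With the embryo pool as a block the test also picked out positive changes of 1.52 for Fgf15, 1.40 for Prr16, 1.26 for Rarres1, 1.24 for Vcam1, 1.19 for Pax9, 0.78 for Dlx6os1, 0.73 for Epha3, 0.71 for Postn, 0.61 for Hoxb3, 0.58 for Lix1, 0.56 for Tcim, 0.46 for Tmem132c and 0.45 for Serinc5. Negative changes were -1.64 for Smoc2, -0.93 for Alx4, -0.79 for Zbtb16, -0.51 for Foxp4, -0.50 for Col25a1 and -0.41 for Flrt2. Groups of 3 libraries are too small for a test of single outlying libraries.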

How the results depend on the processing

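The counts of arch differences in HIRE1del (4806) and WT (5252) stayed within 1.5-fold in every alternative, from 4045 to 5625 and from 4389 to 6098 outside the omissions of a library and from 3733 to 4864 and 4121 to 5355 with 1 library left out. The count called in both genotypes with the same sign (3626) ranged from 2945 to 4299 and the count that remained within 1.5-fold (2308) from 1700 to 3055. The 7 changed arch differences became 29 with DESeq2 (86.2% positive) and 3 to 12 with 1 library left out. They were 3 without PA2 HIRE1del replicate 2, PA3 HIRE1del replicate 2 or PA2 WT replicate 1, 4 without PA2 HIRE1del replicate 1 or PA2 WT replicates 2 or 3, and 12 without PA2 HIRE1del replicate 3. The cause was not tested. The changes of Hoxa2 and Meis2 were called in every alternative, and that of Hoxaas2 in every one that tested it.

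With the embryo pool block, which pairs the arches by replicate number, the changed differences numbered 26 (76.9% positive). Of 205 calls of named genes in the mutant, 178 were kept in every alternative and 27 were lost in some, with 0 reversed. The change had an SE of 0.133 at the median, and without the block no change under 0.62 was called with 3 libraries per group.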

Other observations

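Forkhead genes were among the transcription factors that separated the arches in both genotypes. Of 18 tested, 8 rose and 5 fell in PA3 of HIRE1del, against 7 and 3 in WT. For this and the 2 lists below, 18.7% of all genes tested rose and 14.7% fell in the mutant, and 19.1% and 17.4% in WT. Foxe1, a factor of pharyngeal endoderm and thyroid, had an arch difference of 1.65 in the mutant and 1.14 in WT, Foxf1, a factor of visceral mesoderm, 1.12 and 0.67, and Foxd1 -1.33 and -0.79. Of 15 first-arch and facial homeobox genes, 5 rose and 7 fell in the mutant, with 5 and 6 in WT, and the rises numbered 2 without PA2 HIRE1del replicate 2. Of 12 caudal crest and hindbrain factors, 4 rose and 4 fell. Cited1, a transcriptional coregulator, measured 26.8, 28.5 and 30.1 CPM in PA2 and 17.3, 14.4 and 14.2 in PA3 of the mutant, and 28.3, 33.6 and 31.3 against 9.87, 7.5 and 11.1 in WT. Its PA2 libraries overlapped between genotypes while its PA3 libraries were apart, with arch differences of -0.90 and -1.71 and a change of 0.81 that was not called (adjusted p = 0.424, edgeR).

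Without the embryo pool block 4 genes were called in both genotypes with opposite signs, namely Hoxa2, Meis2, Fzd4 and Erlin2, an endoplasmic reticulum protein. With the block there were 8, these 4 and Prr16, Epha3, Bmp5 and Srp54b. Erlin2 measured 76.8, 80 and 75.3 CPM in PA2 and 92, 92.8 and 83.8 in PA3 of the mutant, and 101, 95 and 88.7 against 87.7, 84 and 82.7 in WT. The differences were 0.21 (adjusted p = 0.0145) and -0.16 (adjusted p = 0.0435), and the change of 0.37 was not called (adjusted p = 0.424, edgeR).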
